A study of Homo sapiens with 6 samples.

Results

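The genes described here are 37 human genes of homologous recombination, the Fanconi anemia pathway, the DNA damage checkpoint kinases and mismatch repair. They were chosen by name, and each was found by its symbol among the 50868 Ensembl genes listed in every library. Of the 37, 20 were tested for a change and 17 lay below the limit for testing. The libraries came from total RNA of cells labelled A549, a lung adenocarcinoma line, transfected with a scramble control siRNA (3 libraries) or with an siRNA against SF3B4 (3 libraries), with no other treatment named. SF3B4 encodes a subunit of SF3b, a part of the spliceosome that recognises branch points. The sources used here give no dose, time after transfection or siRNA sequence. The labels call the replicates biological without saying whether they were separate cultures, so each p-value reflects the spread among these libraries, which may be technical.

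Homologous recombination repairs a DNA double-strand break by copying an intact sister chromatid. MRE11, RAD50 and NBN sense the broken end, RBBP8 and EXO1 take part in trimming it to single-stranded DNA, and BRCA1, PALB2 and BRCA2 act in the steps that follow. In the Fanconi pathway a core complex and the conjugating enzyme UBE2T attach ubiquitin to FANCD2 and FANCI at DNA interstrand crosslinks, and USP1 removes it. ATM and ATR are the kinases that signal damage to CHEK2 and CHEK1, and the MSH and PMS proteins find and process mismatched bases. Many of these genes are transcribed mainly in cycling cells.

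The target, SF3B4, measured 88.6, 92 and 93.8 FPKM (fragments scaled by transcript length and library depth) with control siRNA. With SF3B4 siRNA it measured 22, 17.7 and 22.3 FPKM, which is 22.6% of the control mean (log2 fold change -2.15, limma adjusted p = 8.8e-05, exact two-sided permutation p = 0.1, the smallest that 3 against 3 allows). For SF3B4 siRNA replicates 2 and 3 the genotype field gives SF3B5 and SF3B6 knockdown, while titles and treatment fields give SF3B4. The titles were followed. SF3B5 stood at 393, 432 and 453 FPKM with control siRNA. All 3 SF3B4 siRNA libraries were lower, at 201, 189 and 207 FPKM for replicates 1 to 3. This is 46.7% of the control mean (log2 fold change -1.10, limma adjusted p = 9.6e-05), and its cause was not tested. No call was made for SF3B6 (log2 fold change -0.14, limma adjusted p = 0.18). In SF3B4 siRNA replicate 3, SF3B6 stood at 42.2 FPKM, between replicates 1 (39.1) and 2 (43.3). The depth implied by the steps between low values was about 17500000 to 18500000 fragments per library. Epithelial keratin genes were high, KRT19 averaging 644 FPKM, and 2 of 6 epithelial markers rose after SF3B4 siRNA, CDH1 (41.2 to 75 FPKM, log2 fold change 0.87) and EPCAM (21.3 to 27.2 FPKM, 0.36). Of 8 genes typical of A549, 6 were below a mean of 1 FPKM, among them AKR1C1 (0.0421) and ALDH1A1 (0.0252), and SFTPB and SFTPC were listed at 0. The other 2 changed with SF3B4 siRNA, VIM lower (3.46 to 1.54 FPKM) and AKR1B10 higher (0.885 to 2.16 FPKM). AKR1B10 reached 1 FPKM in its SF3B4 siRNA libraries alone. The part of these marker shifts in the members' changes was not tested. The names of the deposited columns carry H1650, another lung cancer line, so the libraries are called by their label only. Of 8 markers of leukocytes, endothelium and fibroblasts, 6 were below a mean of 1 FPKM and PTPRC was listed at 0, while CD68 was at 26.8 and COL1A1, at 1.8, was called higher.

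The members spanned a wide range of levels before any comparison. UBE2T was the most abundant, averaging 29.3 FPKM across all libraries, followed by the core complex genes FANCG (7.66) and FANCE (6.27), then RAD54L (3.87) and XRCC3 (3.86). At the other end were BRCA2 (0.0206), FANCM (0.0492), ATM (0.0611), FANCB (0.131) and BRCA1 (0.165). BRCA2, a mediator of recombination, would correspond to 0 to 11 fragments in a library at the length of its representative transcript, ATM to 11 to 19 and BRCA1 to 15 to 32. For the well-measured UBE2T this number was 399 to 553. Changes in BRCA2, ATM and BRCA1 were therefore hardly detectable at this depth.

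Level followed base composition closely across the members. Of the 11 members whose representative transcript has a GC content under 40%, the median level was 0.193 FPKM and 1 was tested, FANCL. The 16 members with a GC content from 40% to under 45% had a median of 1.02 FPKM and 9 tested, and the 10 members at 45% or more had a median of 2.97 FPKM and all 10 tested. Spearman's rho between GC content and mean level was 0.785 over the 37 members (Pearson r on the log2 scale 0.668), and -0.596 between transcript length and level (r = -0.68). Over 15589 protein-coding genes above 0 in any library the same values were 0.237 and -0.135. These are descriptions across genes, which share the same 6 libraries, and FPKM corrects for length but not for GC content. In bulk RNA, fewer cells that express a gene and less RNA per cell cannot be told apart.

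**Figure D1:**
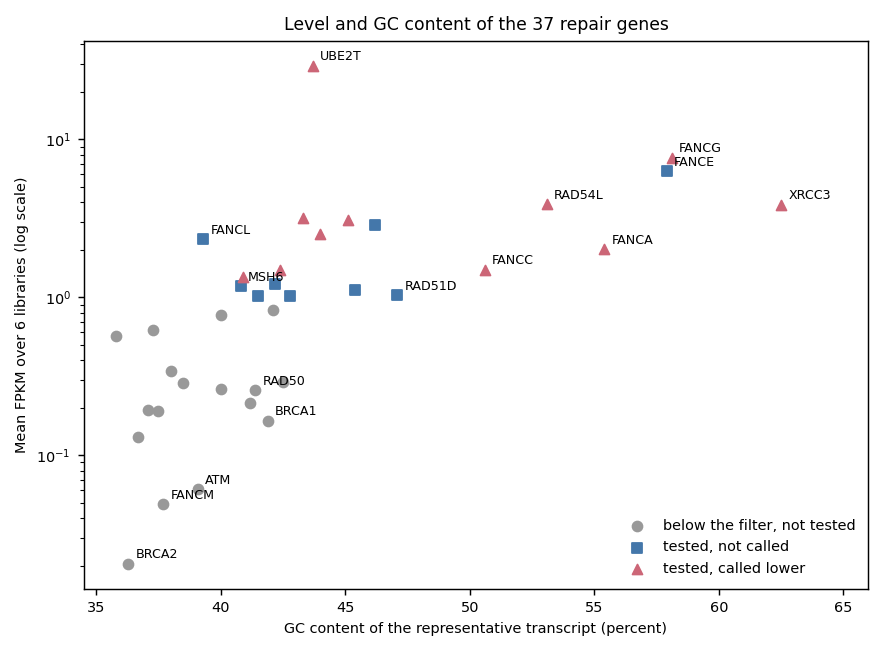
Mean FPKM over 6 libraries (log axis) against GC content of the representative transcript in percent for the 37 members, with grey circles for members below the limit for testing, blue squares for tested members that were not called and red triangles for those called lower. The 10 members with GC of at least 45% all lie above 1 FPKM, and 10 of the 11 under 40% lie below it.

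After SF3B4 siRNA, 11 of the 20 tested members fell and 0 rose. Among all 9685 tested genes 18.1% were called lower and 16.0% higher, at a limma adjusted p under 0.05, and the median log2 fold change was -0.35 in the tested members against -0.004 in all tested genes. At an unadjusted limma p under 0.05 the counts were also 11 lower and 0 higher. Without the intensity trend and robust option of limma, 1 member rose, RAD51D. In 12 tested members every SF3B4 siRNA library lay below every control library, and in 1 every one lay above, where 25.7% and 23.8% of all tested genes did so. A gene was tested when at least 3 of 6 libraries reached 1 FPKM, so FANCC entered through its control libraries alone and RAD51D through its SF3B4 siRNA libraries alone. Counting every listed member, tested or not, the mean was lower after SF3B4 siRNA in 33 of 37. No share over all listed genes is given for comparison, and 17 of these members lay below the limit for testing.

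**Figure D2:**
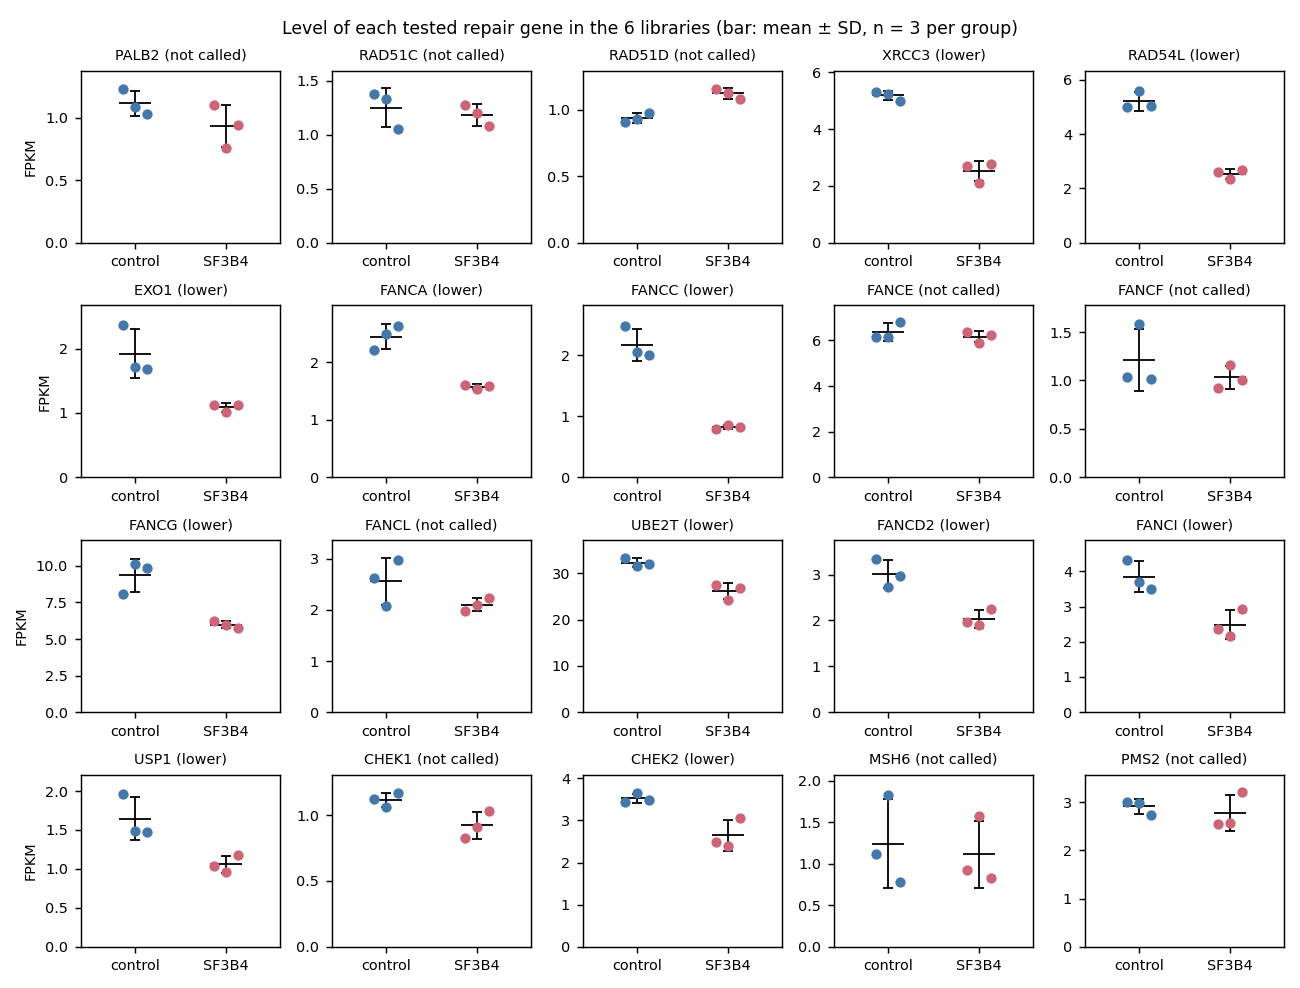
FPKM of the 20 tested members in each library, with blue points for control siRNA, red points for SF3B4 siRNA and bars for the mean ± SD (n = 3 per group). The groups of the 11 members called lower do not overlap, while those of FANCE, FANCL, RAD51C and PMS2 do.

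Among the recombination genes, RAD54L and XRCC3 fell with the same log2 fold change, and the other 3 tested genes did not pass. RAD54L, a motor protein that remodels recombination intermediates, stood at 5, 5.6 and 5.02 FPKM in control replicates 1 to 3 and at 2.59, 2.34 and 2.69 FPKM in SF3B4 siRNA replicates 1 to 3. The SF3B4 siRNA libraries were all low, at 48.7% of the control mean (log2 fold change -1.01 ± 0.10 SE, limma adjusted p = 4.6e-04). XRCC3, a strand exchange factor, was at 5.31, 5.24 and 5 FPKM and then at 2.72, 2.12 and 2.76 FPKM, 48.9% of control (log2 fold change -1.01 ± 0.12 SE, limma adjusted p = 8.8e-04). Here too the groups were far apart. KLC1, on the opposite strand, covers 76.7% of the exon bases of XRCC3, and LRRC41 covers 25.1% of those of RAD54L. Reads of such pairs cannot be separated without strand. KLC1 (1.64 and 1.96 FPKM) and LRRC41 (7.33 and 9.38 FPKM) had higher means after SF3B4 siRNA and did not pass the test.

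RAD51C, which pairs with XRCC3, was at 1.25 ± 0.18 and 1.19 ± 0.0995 FPKM (SD, n = 3 each), with a 95% interval of the log2 fold change from -0.41 to 0.28. RAD51D, a related gene, was at 0.91, 0.929 and 0.977 FPKM in control and at 1.16, 1.13 and 1.08 FPKM after SF3B4 siRNA. All 3 of its SF3B4 siRNA libraries were higher than all 3 controls, the only tested member with that order, but it did not pass (log2 fold change 0.24, limma adjusted p = 0.18). PALB2, which bridges BRCA1 and BRCA2, was at 1.11 ± 0.105 and 0.935 ± 0.169 FPKM with overlapping groups. The remaining recombination genes were below the limit for testing. RAD51AP1, a recombination accessory factor, stood at 0.64, 0.699 and 0.84 FPKM and then at 0.443, 0.306 and 0.465 FPKM without overlap. BRCA1 was at 0.242, 0.207 and 0.159 FPKM and then at 0.115, 0.153 and 0.114 FPKM, also without overlap but at few fragments. Its partner BARD1 (0.422 and 0.266 FPKM) and XRCC2 (0.349 and 0.231 FPKM) had overlapping groups.

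When the filter was instead a mean of at least 0.5 FPKM over all 6 libraries, 24 members and 11692 genes were tested, and 12 members were called lower, where 15.8% of all genes were. The added call was RAD51AP1 (log2 fold change -0.72 ± 0.20 SE, limma adjusted p = 0.031). With no filter it had the same log2 fold change and an adjusted p of 0.06.

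In the group that senses and trims broken ends, the nuclease gene EXO1 was the 1 tested member and it fell. It stood at 2.36, 1.72 and 1.68 FPKM in control and at 1.12, 1.01 and 1.13 FPKM after SF3B4 siRNA (log2 fold change -0.75 ± 0.16 SE, limma adjusted p = 0.0086). Control replicate 1 was higher than the other two, and all 3 SF3B4 siRNA libraries were lower than any control. RBBP8, which starts end resection, was at 1.18, 1.02 and 0.663 FPKM and then at 0.638, 0.598 and 0.555 FPKM. BLM, the helicase mutated in Bloom syndrome, was at 0.355, 0.264 and 0.253 FPKM and then at 0.113, 0.121 and 0.186 FPKM. Neither RBBP8 nor BLM overlapped between groups, and neither reached the limit for testing. The 3 genes of the MRE11 complex were also below it. MRE11 means were 0.347 and 0.229 FPKM, RAD50 means 0.255 and 0.263 FPKM and NBN means 0.61 and 0.635 FPKM, all with overlap. RAD50 shares 79.7% of its exons with AC116366.3, a gene model on the same strand.

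The Fanconi core complex was divided. FANCC, which forms a module with FANCE and FANCF, had the largest change of any tested member. It measured 2.48, 2.05 and 2 FPKM with control siRNA and 0.79, 0.867 and 0.82 FPKM with SF3B4 siRNA, 37.9% of control (log2 fold change -1.29 ± 0.13 SE, limma adjusted p = 4.7e-04). The SF3B4 siRNA libraries were close to each other and far below the controls. FANCE, the part of the module that contacts FANCD2, was at 6.16, 6.15 and 6.81 FPKM and then at 6.35, 5.88 and 6.25 FPKM. Its groups overlapped, and the 95% interval of its log2 fold change ran from -0.25 to 0.15. FANCF, the adaptor of the complex, was at 1.04, 1.58 and 1.02 FPKM and then at 0.923, 1.16 and 1.01 FPKM, where control replicate 2 stood above the rest (interval -0.64 to 0.25).

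FANCG and FANCA, a pair of interacting core subunits, fell by similar amounts. FANCG was at 8.06, 10.1 and 9.89 FPKM and then at 6.21, 5.98 and 5.74 FPKM (log2 fold change -0.63 ± 0.11 SE, limma adjusted p = 0.0037). FANCA was at 2.21, 2.5 and 2.63 FPKM and then at 1.61, 1.53 and 1.59 FPKM (log2 fold change -0.60 ± 0.11 SE, limma adjusted p = 0.0053). Both kept a clear gap between the groups. The exons of FANCA overlap ZNF276 on the other strand over 23.6%. UBE2T fell less, from 33.4, 31.5 and 32.1 FPKM to 27.6, 24.3 and 26.9 FPKM (log2 fold change -0.30 ± 0.07 SE, limma adjusted p = 0.015). FANCL, the ubiquitin ligase that works with UBE2T, was at 2.56 ± 0.454 and 2.1 ± 0.124 FPKM with overlap (interval -0.59 to 0.08). FANCB, which binds FANCL (0.176 and 0.0867 FPKM), and the DNA translocase gene FANCM (0.0634 and 0.0351 FPKM) were too low to test.

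The substrates of the core complex and the enzyme that reverses its reaction fell together. FANCD2 was at 3.34, 2.74 and 2.98 FPKM and then at 1.97, 1.89 and 2.26 FPKM (log2 fold change -0.54 ± 0.12 SE, limma adjusted p = 0.011). FANCI was at 4.34, 3.7 and 3.5 FPKM and then at 2.37, 2.16 and 2.94 FPKM (log2 fold change -0.61 ± 0.14 SE, limma adjusted p = 0.013). POLG, which covers 5.9% of the exon bases of FANCI on the opposite strand, also fell (8.55 to 6.23 FPKM). In FANCD2 and FANCI, SF3B4 siRNA replicate 3 was the highest of its group and still below every control. USP1, the deubiquitinase, was at 1.96, 1.49 and 1.48 FPKM and then at 1.04, 0.96 and 1.18 FPKM (log2 fold change -0.58 ± 0.15 SE, limma adjusted p = 0.022). The USP1 call was lost without SF3B4 siRNA replicate 1 or 2 and with no filter (adjusted p 0.017 to 0.07 over the alternatives). BRIP1, a helicase that binds BRCA1, was at 0.26, 0.195 and 0.229 FPKM and then at 0.185, 0.134 and 0.143 FPKM, below the limit for testing.

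**Figure D3:**
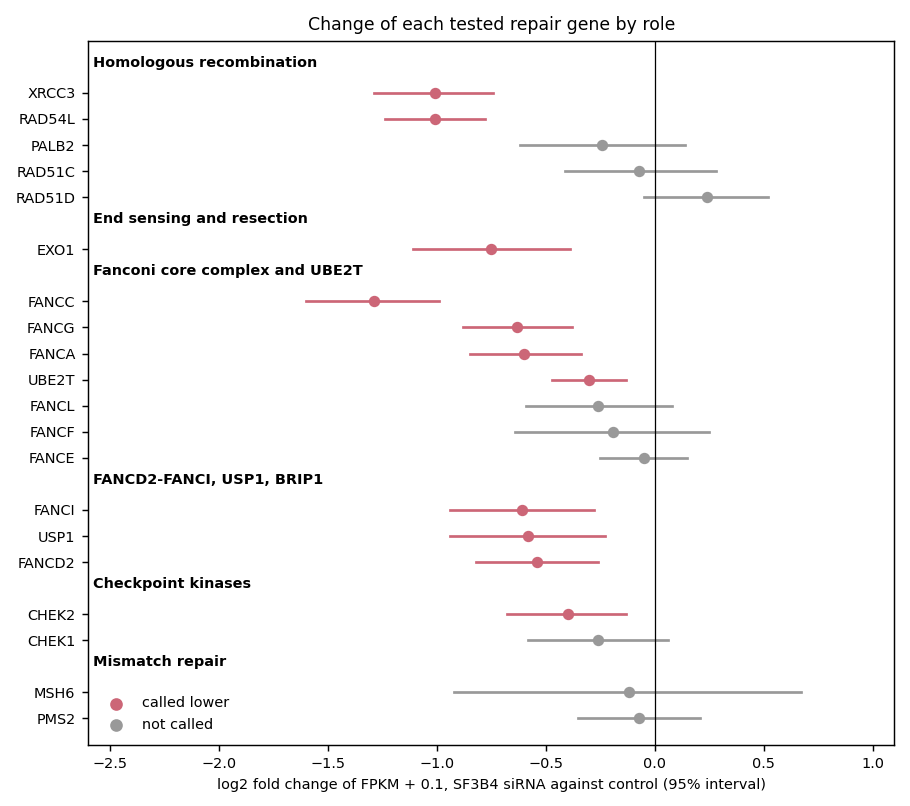
Log2 fold change of each tested member with its 95% interval from the limma fit (x axis, on FPKM + 0.1), arranged by role, in red where called lower and in grey where not. FANCC, RAD54L and XRCC3 lie at or beyond -1, and the intervals of the mismatch repair genes span 0.

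Ratios between partner genes were taken within each library. FANCD2 relative to FANCI was 0.768, 0.74 and 0.852 in control and 0.833, 0.878 and 0.769 after SF3B4 siRNA, with overlap (exact two-sided permutation p = 0.4). FANCA relative to FANCG was 0.263 ± 0.0135 in control and 0.264 ± 0.012 after SF3B4 siRNA (SD, n = 3 each). FANCD2 to USP1 and UBE2T to FANCL also overlapped, as did RAD51C to RAD51D. The FANCC to FANCE ratio, by contrast, was 0.403, 0.333 and 0.294 in control and 0.124, 0.147 and 0.131 after SF3B4 siRNA, a log2 difference of -1.35 without overlap. FANCC to FANCF differed by -1.19 and XRCC3 to RAD51C by -0.97 on the log2 scale, again without overlap. For these 3 ratios the exact permutation p was 0.1, the smallest that 3 against 3 allows, and 0.267 after Benjamini-Hochberg adjustment over the 8 ratios. The pairs were chosen after the values were seen.

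**Figure D4:**
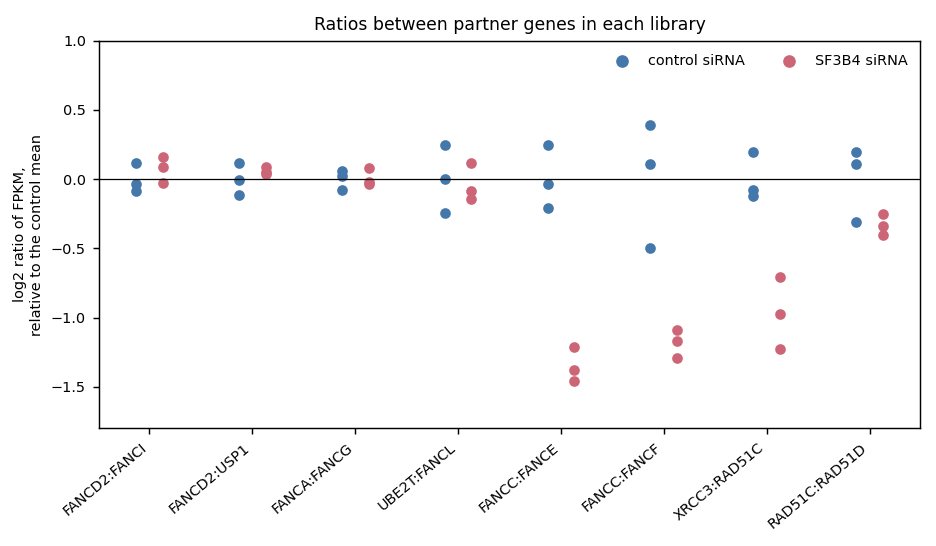
Log2 ratio of FPKM between 2 partner genes in each library, relative to the mean of the 3 control libraries, for 8 pairs (blue, control siRNA; red, SF3B4 siRNA). The 3 SF3B4 siRNA libraries of FANCC to FANCE, FANCC to FANCF and XRCC3 to RAD51C lie below all controls, and the other 5 pairs overlap.

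Of the checkpoint kinases, CHEK2 fell and CHEK1 did not pass. CHEK2, which acts downstream of ATM, was at 3.44, 3.65 and 3.48 FPKM and then at 2.49, 2.39 and 3.07 FPKM (log2 fold change -0.40 ± 0.12 SE, limma adjusted p = 0.032). SF3B4 siRNA replicate 3 was nearest to the controls. The CHEK2 call was lost in 7 of 15 alternatives (adjusted p 0.017 to 0.1), namely without any 1 of the control libraries, without SF3B4 siRNA replicate 1 or 2, with no filter and with the replicate number as a block. CHEK1, which acts downstream of ATR, was at 1.12, 1.06 and 1.17 FPKM and then at 0.828, 0.908 and 1.03 FPKM, without overlap (log2 fold change -0.26 ± 0.14 SE, limma adjusted p = 0.18). ATM (0.0721 and 0.05 FPKM) and ATR (0.321 and 0.204 FPKM) were too low to test.

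The 4 members listed under mismatch repair gave no call, by limma's adjusted p or by an unadjusted p under 0.05 (0 of 2 tested). PMS2, the endonuclease subunit of the pathway, was at 3.01, 2.99 and 2.74 FPKM and then at 2.55, 2.57 and 3.21 FPKM (log2 fold change -0.07, limma adjusted p = 0.68, interval -0.35 to 0.21). PMS2 is uncertain, since the pseudogenes named after it, PMS2P1 and PMS2CL, were listed at means of 14.1 and 2.78 FPKM. How far reads are shared between them and PMS2 was not examined. MSH6, a mismatch recognition subunit, was at 1.12, 1.83 and 0.776 FPKM and then at 0.929, 1.58 and 0.827 FPKM. Replicate 2 was the highest of both groups, and the interval of the log2 fold change was wide, from -0.92 to 0.67. MSH3, which recognises larger loops, was at 0.776, 0.751 and 0.621 FPKM and then at 0.925, 1.04 and 0.841 FPKM, higher in all 3 libraries but below the limit for testing (log2 fold change 0.35 and limma adjusted p = 0.13 at a mean of at least 0.5 FPKM). PMS1, a relative of PMS2, was at 0.307, 0.212 and 0.191 FPKM and then at 0.105, 0.186 and 0.159 FPKM, lower in all 3 libraries and also below the limit for testing.

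Mismatch repair shares with DNA replication a set of accessory genes that resynthesise the strand. Of 14 tested accessory genes, 10 fell and 1 rose, with a median log2 fold change of -0.51. The clamp loader gene RFC3 fell from 2.4 ± 0.694 to 0.988 ± 0.257 FPKM, RFC4 from 2.18 ± 0.31 to 1.2 ± 0.105 FPKM and the polymerase delta subunit gene POLD3 from 2.3 ± 0.184 to 1.35 ± 0.132 FPKM. POLD4, another subunit of that polymerase, rose from 4.14 ± 0.705 to 5.82 ± 0.357 FPKM, a call lost without control replicate 3 or SF3B4 siRNA replicate 1 or 2 (limma adjusted p up to 0.077). The difference between the accessory and the dedicated genes was not tested.

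Other genes of recombination and the Fanconi pathway fell in 9 of 21 tested cases and rose in 2, with a median of -0.24. RFWD3, a ubiquitin ligase of the pathway, fell from 10.3 ± 1.72 to 4.17 ± 0.47 FPKM, FAAP24 from 2.29 ± 0.297 to 1.02 ± 0.156 FPKM and FAAP20 from 4.74 ± 0.117 to 2.64 ± 0.29 FPKM. FAAP24 and FAAP20 encode proteins associated with the core complex. BABAM2, of a complex that binds BRCA1, rose from 8.22 ± 0.457 to 11.4 ± 0.897 FPKM, and SEM1, a small BRCA2 partner, from 4.53 ± 0.485 to 5.8 ± 0.531 FPKM. The SEM1 call was lost in 8 of 16 alternatives, among them with any single SF3B4 siRNA library left out and without control replicate 1 or 3 (limma adjusted p up to 0.14). Other checkpoint genes fell in 6 of 11 tested cases and 0 rose (limma; 1 higher at an unadjusted p under 0.05). They included WEE1, a kinase that restrains entry into mitosis (1.35 ± 0.276 to 0.507 ± 0.0534 FPKM, tested through its control libraries alone but also called with no filter), the histone gene H2AX (76.7 ± 5.29 to 42.8 ± 4.35 FPKM) and TIMELESS (15.8 ± 2.04 to 8.79 ± 1.12 FPKM).

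Repair pathways that act on other lesions differed in their counts. Nucleotide excision repair, which removes bulky adducts, had 1 of 16 tested genes lower and 5 higher, with a median log2 fold change of 0.17. GTF2H3 and MNAT1, both of the TFIIH factor, rose with log2 fold changes of 0.56 and 0.52. GTF2H3 reached 1 FPKM in its SF3B4 siRNA libraries alone, and its call was lost with no filter. In the same list ERCC3 fell (-0.38), a call lost with the block and without control replicate 2 or SF3B4 siRNA replicate 1 or 2. The 5 rises became 2 without control replicate 2 or 3, with no filter, and when any single SF3B4 siRNA library was left out, and 3 with the block. End joining, which ligates broken ends directly, had 2 of 10 tested genes lower (MAD2L2, -0.32, and XRCC5, -0.29) and 2 higher (SHLD1, 0.88, and XRCC6, 0.19), close to the shares of all genes. Without SF3B4 siRNA replicate 1 the falls became 0, and without SF3B4 siRNA replicate 2 or 3 the rises became 0. Without a control replicate the falls were 1 to 3 and the rises 1 or 2. XRCC5 and XRCC6, which encode the Ku proteins, lost their calls in 10 and 9 of 16 alternatives.

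Base excision repair, which replaces single damaged bases, had 8 of 18 tested genes lower and 1 higher (NEIL2, 0.39, a call lost when any single library was left out), with a median of -0.38. PARP2, which senses strand breaks, fell from 1.39 ± 0.158 to 0.673 ± 0.055 FPKM. It too was tested through its control libraries alone and was also called with no filter. The flap nuclease gene FEN1 fell from 38.4 ± 2.3 to 20.7 ± 2.12 FPKM and APEX2 from 27.6 ± 1.21 to 16.7 ± 0.518 FPKM. Translesion synthesis, which copies past damage, had 3 of 5 tested genes lower and 0 higher (limma, also at an unadjusted p under 0.05), led by UBE2B (3.23 ± 0.48 to 1.62 ± 0.167 FPKM) and POLH (3.82 ± 0.255 to 2.54 ± 0.155 FPKM). Set beside these, the tested recombination, end resection and Fanconi members had 10 of 16 lower and 0 higher. These lists share some genes and were not tested against each other.

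**Figure D5:**
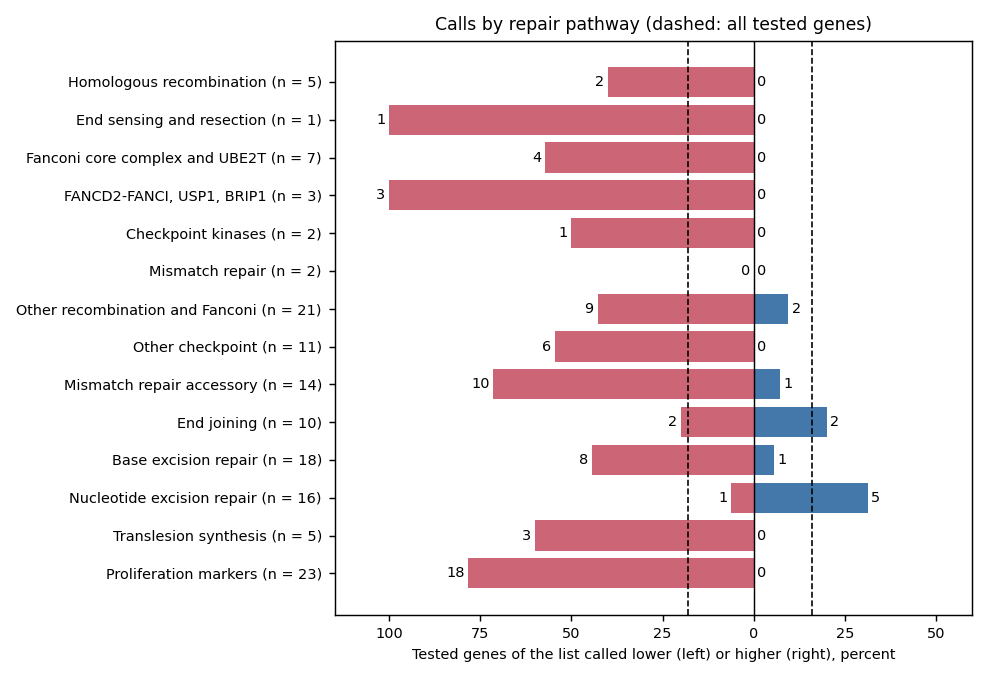
Share of tested genes called lower (red, left) or higher (blue, right) in percent for the 6 role groups of the members, 7 other repair lists and the proliferation markers, with the number of calls beside each bar and n the number tested. Dashed lines mark 18.1% and 16.0%, the shares over all tested genes; nucleotide excision repair is the repair list with more rises than falls.

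Proliferation markers moved with the members. Of 23 tested markers 18 fell and 0 rose (limma; 19 and 0 at an unadjusted p under 0.05), with a median log2 fold change of -0.56, and their summed level was 579 to 612 FPKM in the control libraries and 373 to 469 FPKM after SF3B4 siRNA. CDC6, which licenses replication origins, fell from 10.5 ± 1.25 to 4.75 ± 0.803 FPKM. Relative to the control mean, the median marker stood at -0.59, -0.69 and -0.43 on the log2 scale in SF3B4 siRNA replicates 1 to 3, and the median tested member at -0.44, -0.52 and -0.32. In both medians, replicate 2 was the lowest and replicate 3 the nearest to control. Of the 11 members called lower, SF3B4 siRNA replicate 3 was the highest of its group in 7. No such share over all genes called lower is given for comparison. SF3B4 itself, at 22, 17.7 and 22.3 FPKM in SF3B4 siRNA replicates 1 to 3, was also lowest in replicate 2, with replicates 1 and 3 close together. A relation between its level and these medians was not tested. The part of the markers' change in that of the repair genes was not tested.

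The promoters of several members hold a match to the E2F motif, the sequence bound by a family of factors that switch on genes before DNA replication. Windows from 250 bases before to 50 after the start site were available for 35 members (RefSeq, GRCh38.p14) and searched on both strands for TTTCCCGC, TTTCGCGC, TTTGCCGC and TTTGGCGC. A match was held by 8 of the 35 members (22.9%), against 3.33% of 27305 promoters and 5.51% of 7083 promoters of tested genes. Of the 10 searched members called lower, 4 held one, EXO1, FANCA, FANCC and FANCD2. Of the 9 that were tested but not called, MSH6 and PMS2 did, and MSH3 and XRCC2 did among those not tested. Over all tested genes with a promoter window, 7.69% of those called lower held a match, 5.3% of those not called and 3.91% of those called higher. The windows around 7 matches, from members called lower and members not called, are printed with the match in capitals:
FANCD2, chr3:10026415-10026462, plus strand, called lower: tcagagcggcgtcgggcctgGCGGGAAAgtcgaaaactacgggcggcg
EXO1, chr1:241848188-241848235, plus strand, called lower: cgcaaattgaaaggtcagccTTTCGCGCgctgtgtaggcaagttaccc
FANCC, chr9:95317854-95317901, minus strand, called lower: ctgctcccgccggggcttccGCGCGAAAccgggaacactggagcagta
FANCC, chr9:95317728-95317775, minus strand, called lower: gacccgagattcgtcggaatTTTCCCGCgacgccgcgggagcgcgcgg
FANCA, chr16:89816792-89816839, minus strand, called lower: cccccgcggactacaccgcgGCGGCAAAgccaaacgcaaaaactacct
MSH6, chr2:47783128-47783175, plus strand, not called: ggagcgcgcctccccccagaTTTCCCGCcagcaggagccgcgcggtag
PMS2, chr7:6009122-6009169, minus strand, not called: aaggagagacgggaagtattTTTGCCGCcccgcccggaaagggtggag

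The match in FANCD2 begins 2 bases before the start site and that in EXO1 4 bases after it, while the 2 matches in FANCC begin 172 and 46 bases before it. Of the 4 promoters of members listed under mismatch repair 3 held a match. Of these, MSH6 and PMS2 were tested and not called, and MSH3 was not tested. The CHR motif (TTTGAA or TTCGAA), known from genes of late cell cycle phases, was in 4 of the 35 members (11.4%). It was in 16.6% of all promoters and in 9.61% of those of tested genes. CCAAT was in 18 of the 35 (51.4%), against 35.7% of all and 37.0% of those of tested genes. A match describes letters in a window and no binding was measured.

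Earlier work on these libraries found the 7-mers GCCTTCA and CCTTCAA in the 3' UTRs of many genes that fell, which makes them a description here and no separate test. In GENCODE 29 coding transcripts, 6 of the 37 members carried either, against 21.1% of 8383 tested genes searched, 36.5% of those called lower and 12.3% of those called higher. Of the 11 members called lower, 2 carried one, FANCC and FANCI. MSH6, which was not called, carried CCTTCAA, as did BRCA1 and BARD1, and RAD50 carried GCCTTCA. FANCC, with the largest change of the members, held GCCTTCA 3 times in near-repeats, in 2 of 4 coding transcripts searched. They are printed beside the site of FANCI (in 1 of 4) with the 7-mer in capitals, in transcript direction, and positions are those of the 7-mer (GRCh38):
FANCC, chr9:95100245-95100251, minus strand: catggtcattGCCTTCAtataacatgc
FANCC, chr9:95100210-95100216, minus strand: catggtcattGCCTTCAtataacatgc
FANCC, chr9:95100173-95100179, minus strand: catgatccttGCCTTCAtataacaaac
FANCI, chr15:89317186-89317192, plus strand: aagctctgctGCCTTCAtttctgaaac

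The first 2 FANCC windows are identical over their whole length. Among the genes of the other lists named above that fell, RFWD3, FAAP24, WEE1, UBE2B, POLD3 and ERCC3 carried GCCTTCA and RFC3 carried CCTTCAA. FAAP20, H2AX, TIMELESS, RFC4, MAD2L2, XRCC5, PARP2, FEN1, APEX2, POLH and CDC6 fell and carried neither. SEM1 carried GCCTTCA and POLD4 CCTTCAA, and both rose. Whether the siRNA acts on any of these sites was not tested.

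Across the 20 tested members, the log2 fold change had Spearman correlations of -0.28 with GC content, -0.0887 with transcript length, -0.418 with the number of exons and -0.383 with level. Over 8473 tested protein-coding genes the values were 0.0177, -0.0609, 0.0111 and 0.084. The tested members with the most exons in their representative transcript, FANCA and FANCD2 (43 each), FANCI (37), RAD54L (18), EXO1 and CHEK2 (16 each), were called lower. Those with 15 or fewer were on both sides: UBE2T (7) and XRCC3 (8) were called lower, while FANCF (1) and PMS2 (15) were not called.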

How the data were processed

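The authors deposited 1 FPKM value per Ensembl gene and library. Per the submitters' processing notes, which give no roles or order, the tools included HISAT2 2.0.4 and StringTie 1.3.0, with GRCh38 as the build. Annotation and strand setting: not given in the sources used. Groups and replicate numbers came from the titles.

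A symbol was found for 49659 identifiers. GENCODE 29 (GRCh38) held 50111 and gave the transcripts, exon overlaps (reported from 5%) and 3' UTRs. Genes reaching 1 FPKM in 3 or more of the 6 libraries were tested on log2(FPKM + 0.1) with limma 3.58.1 in R 4.3.3 (empirical Bayes, intensity trend, robust option, two-sided), Benjamini-Hochberg adjusted over all tested genes at 0.05, so fold changes of low genes are understated. Fits were tested on simulated data. Fragment numbers come from steps of FPKM times length in genes with a single exon (99.1% to 99.5% of low values within 0.02 of a whole number) and cover counting error only. The exact permutation tests used SciPy 1.17.1. The GC ranges were chosen after seeing the data. Named genes are all members, SF3B4, SF3B5, SF3B6 and up to 4 proliferation markers. From the other repair lists they are up to 3 calls per direction with the largest change. Members and lists were chosen with earlier results of these data known. Alternatives were other pseudocounts, filters and scalings, no trend, a replicate block and leaving out each library. A few items are not reported here.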

Additional observations from a re-analysis of the deposited data

How the results depend on the processing

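Over 16 alternatives, 9 of the 11 members called lower stayed called wherever they were tested, and USP1 and CHEK2 lost the call in some, while RAD51D gained one (without intensity trend and robust option). At a mean FPKM of at least 5, 940 genes were lower and 1027 higher, and 2 members were lower, since 3 were tested. The exons of 9 of the 20 tested members overlap another gene over at least 5%, among them 5 of the 11 called lower. Leaving these 9 out, a choice made after seeing the data, left 6 members lower. Without intensity trend and robust option 1 member was higher. Leaving out 1 library at a time gave 9 to 11 members lower, 0 higher, and 1331 to 1604 genes lower and 1094 to 1492 higher. The replicate block gave 10 members lower and 0 higher. The same-numbered libraries did not deviate together (correlations -0.08, 0.0243 and -0.118), so the numbers are taken as names only. Rescaling to TPM, quantile normalization and median centring each left 11 members lower. Of the 17 members below the filter, none was called with no filter (limma, adjusted p 0.06 or more; BLM, MSH3, RAD51AP1 and RBBP8 had an unadjusted p under 0.05), and RAD51AP1 was called at a mean of at least 0.5 FPKM. Few fragments limit what can be seen in them.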
